A study of Mus musculus with 8 samples.

Results

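The 9 genes described here are Mbp, Mobp, Mal, Cldn11, Mag, Mog, Opalin, Cnp and Ermn, which encode proteins of the myelin sheath. They were chosen by name, for what their proteins are known for, with earlier results of these data known, and they are 9 of the 33696 genes in the count tables. All 9 passed the filter on low counts in every comparison below.

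Nuclei of mouse optic nerves (ONs) were profiled by single-nucleus RNA sequencing (snRNA-seq) at postnatal day 120 (P120). The question behind the design is whether loss of the ion channel Piezo2 in the oligodendrocyte (OL) lineage changes the cells of the ON. The control group holds 4 libraries of Piezo2f/f mice, numbered 1 to 4. The second group holds 4 libraries that carry the label Olig2-cre;Piezo2f/f cKO, numbered 10 to 13. For a library, 6 ONs from 3 females were pooled. Both groups carry the floxed Piezo2 alleles on a C57BL/6J background, and the second group also carries Cre inserted at the Olig2 locus, which leaves 1 working copy of Olig2 and makes Cre active throughout the Olig2 lineage. A difference between the groups can therefore follow the Piezo2 alleles, Cre or the Olig2 copy, and these cannot be told apart.

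The deposited values are counts of unique molecular identifiers (UMIs) per gene and barcode, for all barcodes. Libraries held 39628926 to 56541132 UMIs and 3388 to 6224 nuclei after filters. In each library the 45000 barcodes that followed the first 45000 by UMIs, none of them called a nucleus and with medians of 201 to 367 UMIs, are called extranuclear barcodes here, since they collect RNA outside nuclei. They held 7335118 to 13840370 UMIs per library. Of 37176 nuclei, 19194 were OLs by markers that did not include the 9 genes (1275 to 3625 per library). All 11 OL markers were detected in OLs of every library. These markers named the OLs and had UMIs in astrocytes too, so their detection does not check the name. Library pairs shared 1 to 11 of their nuclear barcodes. The summed level of 3 pituitary hormone genes stood apart in control replicate 3, at 7925 UMIs per 1000000 UMIs of a sum (CPM) in extranuclear barcodes against at most 574 CPM in the other libraries, and at 1014 CPM in its OLs. It also differed between the groups, at 202 to 7925 CPM in controls and 5.37 to 74.9 CPM in the second group outside nuclei. Markers of Schwann cells, the myelinating cells of peripheral nerve, summed to 3.09 to 5.45 CPM in OLs and 4.12 to 14.996 CPM in extranuclear barcodes. In OLs Piezo2 stood at 504, 388, 406 and 489.8 CPM in controls 1 to 4, against 532, 536, 571 and 517 CPM in replicates 10 to 13, a log2 difference of 0.25 (SE 0.11, adjusted p = 0.55). The level was thus not lower in the second group. Reads came from the 3′ ends of transcripts and can fall outside the deleted part of Piezo2, so that this level does not check the deletion, and the groups rest on their labels. The second group is called the cKO-labelled libraries. Olig2 stood at 23.7, 31.3, 41.2 and 27.6 CPM against 44.7, 52.4, 49.3 and 43.8 CPM, a log2 difference of 0.60 (SE 0.15, adjusted p = 0.23).

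Myelin is the membrane that an OL wraps around an axon and compacts into a multilayered sheath. Mbp, Mobp, Mal and Cldn11 encode proteins of the layers themselves, namely the basic proteins that hold the inner membrane faces together, a proteolipid that sorts lipid-rich membrane, and the claudin that forms tight junctions between layers. Mag, Mog and Opalin encode glycoproteins of the OL and myelin surface, of which Mag faces the axon and Mog lies on the outermost layer. Cnp, a cyclic nucleotide phosphodiesterase, and Ermn, an actin-binding protein, belong to the cytoplasm-rich parts of myelin. The genes are switched on as precursors (OPCs) pass through committed OPCs to OLs, under the transcription factors Sox10 and Myrf, and mRNAs of Mbp and Mobp are known to be carried out of the cell body towards the sheath.

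Promoters from RefSeq on build GRCm38.p6, with 250 bases before and 50 after the start of transcription, were taken for 8 of the 9 genes. Mbp was left out of the search, and its promoter is not described. With 3 starts for Mag, 10 promoters were taken. They were searched on both strands for 4 motifs, whose matches do not overlap each other in the promoters shown. The letters CTGGNAC, a motif of MYRF, stood in 5 of the 10 promoters, against 19.3% of all 32851 promoters searched. The letters ACAAAG, a motif of SOX10, stood in 5 of the 10, against 18.7% of all. In both counts 2 overlapping Mag promoters hold the same matches, so that each count covers 4 of the 8 genes, and the remaining Mag promoter holds none of the 4 motifs. An E-box, CAGCTG, stood in 1 of the 10 (16.3% of all). A TATA box, TATAAA, stood in 0 of the 10 (13.6% of all). The 5 promoters below are shown because they hold MYRF or SOX10 letters, and the matches, of the E-box too, are in capitals on whichever strand they lie. They lie at chr9:120149492-120149791 (plus strand) for Mobp, chr7:30914814-30915113 (minus strand) for Mag, chr17:37023349-37023648 (minus strand) for Mog, chr19:41077064-41077363 (minus strand) for Opalin and chr11:100574689-100574988 (plus strand) for Cnp, and each is written from 5′ to 3′ along its gene.
Mobp: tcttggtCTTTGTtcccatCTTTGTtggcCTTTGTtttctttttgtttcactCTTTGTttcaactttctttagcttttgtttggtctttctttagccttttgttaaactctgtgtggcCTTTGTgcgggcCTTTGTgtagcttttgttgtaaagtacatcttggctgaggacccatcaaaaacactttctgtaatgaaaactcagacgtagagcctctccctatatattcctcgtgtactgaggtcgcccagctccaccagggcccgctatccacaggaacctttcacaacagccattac
Mag: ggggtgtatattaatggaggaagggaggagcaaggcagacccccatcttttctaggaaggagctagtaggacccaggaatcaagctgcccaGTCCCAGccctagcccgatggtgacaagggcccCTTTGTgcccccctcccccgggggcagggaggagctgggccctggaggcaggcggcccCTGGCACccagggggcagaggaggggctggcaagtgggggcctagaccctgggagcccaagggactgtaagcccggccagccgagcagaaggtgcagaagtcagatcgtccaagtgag
Mog: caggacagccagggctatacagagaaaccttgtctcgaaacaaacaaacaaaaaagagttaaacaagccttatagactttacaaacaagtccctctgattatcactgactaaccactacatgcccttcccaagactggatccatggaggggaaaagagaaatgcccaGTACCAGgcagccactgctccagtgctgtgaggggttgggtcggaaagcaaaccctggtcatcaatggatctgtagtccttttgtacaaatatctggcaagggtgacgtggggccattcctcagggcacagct
Opalin: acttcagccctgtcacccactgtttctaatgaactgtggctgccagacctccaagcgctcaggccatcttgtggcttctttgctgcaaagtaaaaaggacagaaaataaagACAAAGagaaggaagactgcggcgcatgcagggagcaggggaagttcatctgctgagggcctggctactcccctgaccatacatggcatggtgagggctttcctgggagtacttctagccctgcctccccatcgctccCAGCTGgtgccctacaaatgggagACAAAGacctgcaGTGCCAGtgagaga
Cnp: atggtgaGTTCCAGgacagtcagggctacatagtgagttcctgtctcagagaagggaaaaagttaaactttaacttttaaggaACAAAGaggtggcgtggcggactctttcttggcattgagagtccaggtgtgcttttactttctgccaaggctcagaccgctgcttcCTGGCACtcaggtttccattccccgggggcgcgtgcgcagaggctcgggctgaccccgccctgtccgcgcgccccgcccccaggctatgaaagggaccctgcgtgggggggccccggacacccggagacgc
The Mag promoter holds both MYRF and SOX10 letters, as do those of Cnp and Opalin, while that of Mobp holds 6 copies of the SOX10 letters and none of MYRF. The promoters of Mal, Cldn11 and Ermn hold none of the 4 motifs. A match of letters is a description and not a binding site.

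On the mouse build GRCm39 the genes lie at chr18:82493207-82603763 (Mbp, 111 kb from end to end), chr9:119973770-120011273 (Mobp), chr2:127475142-127498615 (Mal), chr3:31203900-31218495 (Cldn11), chr7:30598464-30614474 (Mag), chr17:37321521-37334350 (Mog), chr19:41045254-41065553 (Opalin), chr11:100465730-100482936 (Cnp) and chr2:57934641-57942882 (Ermn, 8.24 kb). Counts were given per gene, so exonic and intronic reads cannot be separated here.

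The 9 genes were most abundant in OLs and in extranuclear barcodes. Their summed level was 12753 ± 1087 CPM (mean ± SD, n = 8 libraries) in OLs and 12936 ± 1453 CPM in extranuclear barcodes, which overlapped. Committed OPCs (4820.2 ± 1030.0 CPM), T cells (4541 ± 1171 CPM, n = 6) and endothelial cells (4193 ± 1382 CPM) came next and overlapped, followed by mural cells (3373 ± 1017 CPM, n = 3) and myeloid cells (2992 ± 577 CPM). OPCs stood at 1876 ± 396 CPM and astrocytes, glia that make no myelin, at 1875 ± 469.6 CPM. Cell types were defined from the same nuclei, so these levels are a description without a test.

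**Figure D1:**
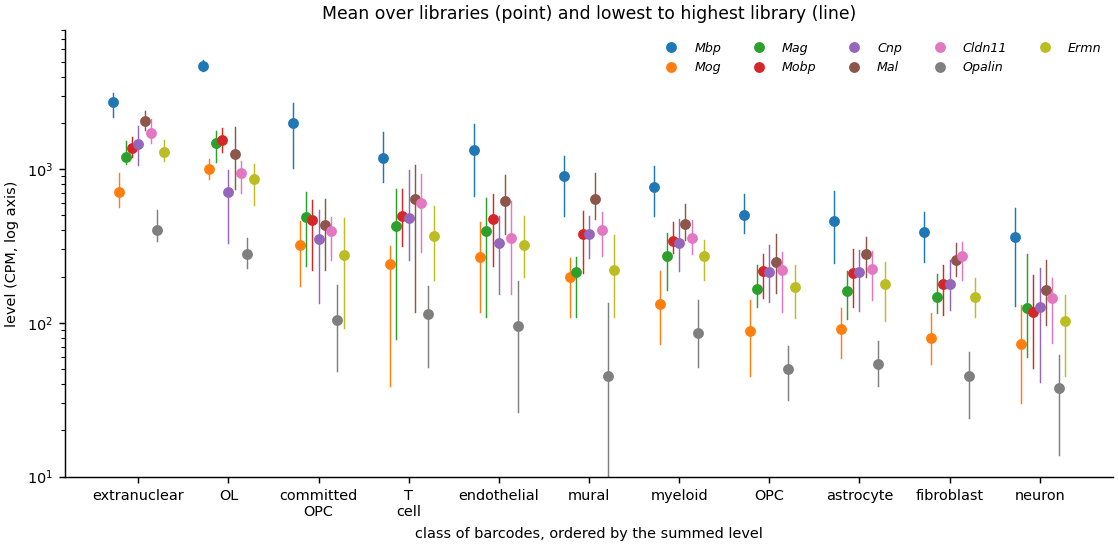
Level of each of the 9 genes (CPM, log axis) in extranuclear barcodes and in nuclei of each cell type, as the mean over libraries (point) with the lowest and highest library (line; lines that reach 10 CPM or less end at the axis). Classes are ordered by the summed level, and every gene has its 2 highest means in OLs and extranuclear barcodes.

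The genes differed in where they were highest. For Mbp, Mobp, Mag and Mog the OLs had the highest mean of the 11 classes, and for Mal, Cldn11, Opalin, Cnp and Ermn the extranuclear barcodes did. Mbp, whose protein is required for compaction, stood at 4687 ± 269 CPM in OLs and 2735 ± 375 CPM outside nuclei, and these did not overlap. Cnp stood at 706 ± 196 CPM in OLs and 1456 ± 283 CPM outside nuclei, again without overlap and in the opposite order. Cldn11 (942 ± 153 against 1728 ± 211 CPM) and Ermn (858 ± 152 against 1284 ± 169 CPM) also did not overlap. Levels in OLs and extranuclear barcodes overlapped for Mobp, Mal, Mag, Mog and Opalin.

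All 9 means were higher in committed OPCs than in OPCs and higher again in OLs. Mbp stood at 499.6 ± 119 CPM in OPCs and at 1986 ± 535 CPM in committed OPCs. The ratio of committed OPCs to OPCs within a library averaged 4.07 for Mbp (2.52 to 6.98 over the 8 libraries) and 3.82 for Mog, but 1.65 for Cnp (0.991 to 2.42) and 1.65 for Ermn (0.675 to 2.43). It was above 1 in 8 of 8 libraries for 7 genes and in 7 of 8 for Cnp and Ermn. The next step, from committed OPCs to OLs, had ratios of 2.10 for Cnp to 3.64 for Ermn, above 1 in every library. Committed OPCs were few, with 17 to 55 nuclei per library, and OPCs numbered 64 to 150. The single committed OPC cluster had 2.47 times the UMIs of the typical nucleus. Each marker's level was divided by its mean in the clusters, of any type, where it was highest. By the median over markers, those of a second cell type stood in this cluster at 0.524, against 0.847 for its own. Other clusters with such values were left unnamed as mixtures and this one was exempted as lying between OPCs and OLs, and the part of mixed nuclei in its levels and make-up was not tested.

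Below OLs and extranuclear barcodes most neighbours in the order overlapped. Committed OPCs overlapped the next class for every gene, and T cells had a higher mean than committed OPCs for Mobp, Mal, Cldn11, Opalin, Cnp and Ermn. OPCs, astrocytes, fibroblasts and neurons held the lowest places, in varying order, for every gene but Opalin, where mural cells stood among them, and neighbours among these overlapped. Mbp, for example, stood at 499.6 ± 119 CPM in OPCs, 458 ± 139.8 CPM in astrocytes, 391 ± 87.8 CPM in fibroblasts and 359 ± 148 CPM in neurons. T cells and mural cells rested on 6 and 3 libraries with enough nuclei for a sum.

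The genes also differed in how far OLs stood above astrocytes. The level in OLs was on average 11.5 times that in astrocytes for Mog (8.0035 to 14.5 over libraries) and 11.2 times for Mbp (7.17 to 19.989), followed by Mag at 9.46 and Mobp at 7.81. For Opalin, Ermn, Mal and Cldn11 it was 5.35, 4.98, 4.41 and 4.28 times, and for Cnp 3.33 times (2.66 to 4.80). In extranuclear barcodes the level was 6.32 times (Mbp) to 8.05 times (Mog) that in astrocytes, a narrower range.

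Counted by nuclei, with each nucleus thinned to 1000 UMIs (641 OLs and 282 astrocytes with fewer UMIs were left out), Mbp had at least 1 UMI in 98.6% ± 0.382 of OLs and in 35.8% ± 8.51 of astrocytes. Astrocytes lack myelin and serve here as a background level. Free RNA in droplets and mixed nuclei can both add to it, and their parts were not tested. Opalin had a UMI in 24.2% ± 2.75 of OLs and 5.67% ± 1.21 of astrocytes, and Cnp in 48.8% ± 9.25 of OLs and 20.2% ± 4.93 of astrocytes. The other 6 genes lay between 54.9% (Ermn) and 76.0% (Mobp) in OLs and between 9.05% (Mog) and 25.0% (Mal) in astrocytes. A thinned OL held UMIs of 5.66 of the 9 genes on average and a thinned astrocyte of 1.67. Without thinning, at medians of 2656 UMIs per OL and 2913 per astrocyte, the shares for Mbp were 99.7% ± 0.165 and 69.3% ± 10.4, and those for Opalin 46.7% ± 5.06 and 14.999% ± 2.72.

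The make-up of the 9 genes' own UMIs separated OLs from extranuclear barcodes. This share, each gene's percentage of the UMIs of all 9, does not depend on the UMIs of other genes. Mbp made up 37.0% ± 3.82 of the 9 genes' UMIs in OLs (mean ± SD, n = 8) and 21.2% ± 1.90 outside nuclei. Mog had 7.90% ± 0.414 in OLs and 5.50% ± 0.364 outside nuclei, and Mag 11.5% ± 1.08 and 9.27% ± 0.425. These 3 genes thus held smaller shares outside nuclei. In the other direction, Cnp made up 5.46% ± 1.18 in OLs and 11.2% ± 1.12 outside nuclei. Mal went from 9.62% ± 2.19 to 15.8% ± 1.12, Cldn11 from 7.35% ± 0.682 to 13.4% ± 0.943 and Ermn from 6.68% ± 0.731 to 9.93% ± 0.705. Mobp (12.3% ± 1.58 and 10.6% ± 0.501) and Opalin (2.20% ± 0.211 and 3.13% ± 0.312) differed least in percentage points. The shares of Opalin did not overlap over libraries, at 1.95% to 2.53% in OLs and 2.62% to 3.56% outside nuclei, while those of Mobp did.

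**Figure D2:**
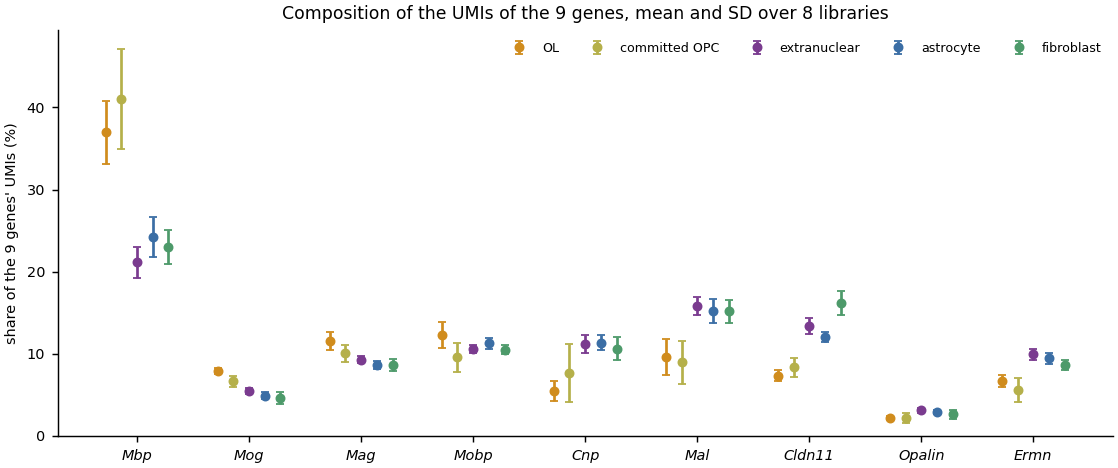
Each gene's share (%) of the UMIs of the 9 genes in OLs, committed OPCs, extranuclear barcodes, astrocytes and fibroblasts, as mean and SD over 8 libraries. Astrocytes and fibroblasts lie near the extranuclear points, with Mbp at 24.2% and 23.0% against 21.2% outside nuclei, and committed OPCs lie near the OLs at 41.0%.

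In astrocytes the make-up was closer to that of the extranuclear barcodes of the same library than to that of its OLs. The distance between the make-up of 2 classes was taken as the summed absolute difference of the 9 shares divided by 2, in percentage points. Astrocytes lay 4.03 ± 0.315 points from extranuclear barcodes and 19.8 ± 4.64 points from OLs, and were closer to extranuclear barcodes in 8 of 8 libraries. Fibroblasts (5.08 ± 1.88 and 22.1 ± 4.88 points), myeloid cells (6.24 ± 1.19 and 18.3 ± 5.08) and OPCs (8.41 ± 1.82 and 17.4 ± 2.57) were also closer to extranuclear barcodes in 8 of 8 libraries. Committed OPCs were the reverse, at 22.8 ± 5.22 points from extranuclear barcodes and 7.71 ± 3.25 points from OLs, and closer to OLs in 8 of 8 libraries. Endothelial cells lay between them, at 13.1 ± 1.94 and 11.3 ± 5.83 points, closer to extranuclear barcodes in 2 of 8 libraries. Neurons, at 11.4 ± 2.14 and 16.2 ± 8.50 points, were closer to extranuclear barcodes in 5 of 8 libraries. T cells were so in 6 of 6 libraries and mural cells in 3 of 3. The make-up rested on 2700 to 7819 UMIs of the 9 genes per library in astrocytes, 472 to 1042 in OPCs and 233 to 2157 in committed OPCs.

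Extranuclear barcodes and OLs differed for all 9 genes at an adjusted p below 0.05, in both directions, as they did for most genes. In the test described below, 14293 of 15581 genes had an unadjusted p below 0.05. Cnp, Cldn11, Mal and Ermn were called higher outside nuclei and Mbp and Mog lower. A gene was called when its adjusted p was below 0.05 and its log2 difference exceeded 0.5 in size (edgeR's quasi-likelihood test on sums per library, library as a block, TMM scaling, Benjamini-Hochberg over 15581 genes). Of all genes tested 79.3% were called, 40.3% higher and 39% lower, so that 6 of 9 genes called is a share near that of genes at large. Extranuclear barcodes also hold RNA of other cell types, with astrocyte markers summed to 2053 to 3233 CPM there against 399 to 616 CPM in OLs, and the part of these in the differences was not tested. In such sums, fewer cells of a type and less RNA per cell cannot be told apart. Some nuclei of lower depth were called for differing from these same barcodes over all genes, the 9 included. The part of that choice in the differences was not tested.

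Among the genes of the compact layers, Mbp stood at 2175, 3147, 2596 and 2524 CPM in extranuclear barcodes of controls 1 to 4, and at 2351, 3075, 2896 and 3117 CPM in those of replicates 10 to 13. In OLs it stood at 4916, 4641, 4588 and 4880.1 CPM and at 4339, 4524, 4464 and 5144 CPM. Every extranuclear value was below every OL value, and the log2 difference was -0.87 (SE 0.089, adjusted p = 2.0e-10). Mobp, the other basic protein gene, lay at 1199.6 to 1625 CPM outside nuclei and 1301 to 1842 CPM in OLs, which overlapped, with a difference of -0.26 (SE 0.079, adjusted p = 0.0027), short of the size limit. Mal, the raft proteolipid gene, stood at 2021, 1862, 1928 and 2156 CPM and 1782, 2372, 2249 and 1976 CPM outside nuclei, against 737, 995, 1555 and 1878 CPM and 929.7, 1443, 1190.3 and 1226 CPM in OLs. It was higher outside nuclei in each library by 1.15 to 2.74 times, although the ranges overlapped, and differed by 0.68 (SE 0.10, adjusted p = 4.4e-07). Cldn11, the tight junction claudin, lay at 1474 to 2110.4 CPM outside nuclei and 695 to 1127 CPM in OLs, with no overlap and a difference of 0.80 (SE 0.083, adjusted p = 3.2e-10).

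Of the surface genes, Mog was lower outside nuclei. It lay at 566 to 939 CPM there and 857 to 1155 CPM in OLs, with ranges that overlapped and a difference of -0.59 (SE 0.072, adjusted p = 9.6e-09). Mag lay at 1084 to 1513 CPM and 1108 to 1778 CPM, a difference of -0.38 (SE 0.076, adjusted p = 3.1e-05), and was lower outside nuclei in 8 of 8 libraries without passing the size limit. Opalin, at 339.6 to 543 CPM and 227 to 354 CPM, was higher outside nuclei in 8 of 8 libraries by 0.44 (SE 0.071, adjusted p = 1.5e-06), also short of the limit. Scaled to total UMIs alone, without TMM, Opalin passed the limit at 0.52 and no direction turned.

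The 2 genes of cytoplasm-rich myelin were called higher outside nuclei, as were Mal and Cldn11 of the compact layers and 40.3% of all genes. Cnp stood at 1065, 1406, 1167 and 1498 CPM outside nuclei of controls 1 to 4 and at 1365, 1908, 1783 and 1456 CPM in the cKO-labelled libraries. Its OL values were 329, 635, 801 and 832 CPM and 600.0, 993, 699 and 759.6 CPM, all below the lowest extranuclear value. The log2 difference was 1.00 (SE 0.095, adjusted p = 5.0e-11), and the ratio within a library ran from 1.46 to 3.24. Ermn lay at 1127 to 1549.7 CPM and 583 to 1079 CPM, a difference of 0.51 (SE 0.079, adjusted p = 7.5e-07) close to the limit. Ermn was not called without the library block (0.50) or without control replicate 1 (0.47), replicate 2 (0.49) or replicate 4 (0.49).

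**Figure D3:**
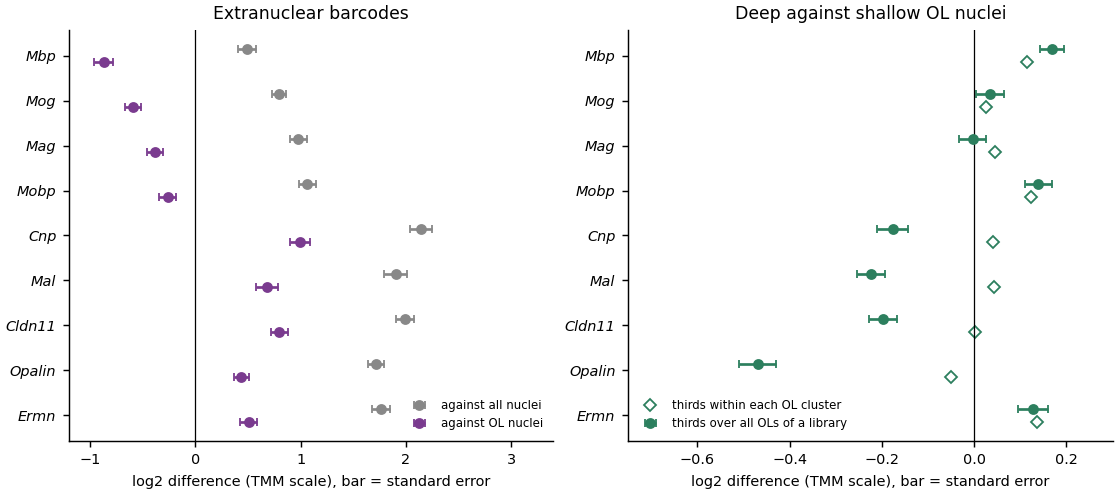
Log2 differences within libraries (points) with standard errors (bars), from edgeR with TMM scaling. On the left, extranuclear barcodes are set against OL nuclei (violet), from -0.87 for Mbp to 1.00 for Cnp, and against all nuclei (grey). On the right, deep OLs are set against shallow OLs, over all OLs of a library (filled) and within each OL cluster (open), where Opalin goes from -0.47 to -0.05.

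Fainter barcodes gave other values. With uncalled barcodes of 10 to 100 UMIs in place of the extranuclear barcodes, Mbp and Mog were again lower than in OLs (-1.202 and -1.11), while Cnp and Cldn11 were no longer called (0.43 and 0.21). Mal, Opalin and Ermn turned in sign, to -0.098, -0.11 and -0.097. These barcodes held 371 to 980 UMIs of the 9 genes per library, and the median difference of all genes was -0.54 there. Across the 15514 genes with an annotated length, the log2 difference between extranuclear barcodes and OLs had a Spearman correlation of -0.29 with the non-exonic length, over genes that share the same 8 libraries. Over the 9 genes it was -0.15.

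Against all nuclei of a library, which include the cell types without myelin, 8 of the 9 genes were called higher outside nuclei, beside 36.2% higher and 38.5% lower among the 17819 genes tested (74.7% in all). This comparison uses the same extranuclear sums as the one with OLs. Cnp was higher by 2.14 (SE 0.10, adjusted p = 2.4e-15), Cldn11 by 1.99 (SE 0.090, adjusted p = 1.0e-15), Mal by 1.90 (SE 0.11, adjusted p = 9.9e-14), Ermn by 1.76 (SE 0.089, adjusted p = 8.2e-15) and Opalin by 1.71 (SE 0.074, adjusted p = 5.3e-16). Mobp (1.06), Mag (0.98) and Mog (0.79) were higher by less. With barcodes of 10 to 100 UMIs Mog stood at -0.17 and Mbp at -0.28, and Mobp (0.27) and Mag (0.078) were not called. Mbp differed by 0.49 (SE 0.087, adjusted p = 1.5e-05), just under the limit, which it passed without control replicate 1 (0.53), control replicate 3 (0.53) or cKO replicate 13 (0.51). Its level was 2175 to 3147 CPM outside nuclei and 2434 to 3134 CPM in all nuclei. Scaling mattered here. Without TMM the median difference of all genes was -0.54 in place of -0.05, the share of calls that were higher was 33.4% in place of 48.5%, Mag and Mog were no longer called (0.49 and 0.31), and Mbp stood at 0.006, each still above the median of all genes.

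Other myelin-related genes, from lists chosen by function, also went both ways between extranuclear barcodes and OLs, where 40.3% of all genes were called higher and 39% lower. Of 20 further sheath genes 8 were called higher outside nuclei and 8 lower, with a median log2 difference of 0.14 beside 0.02 for all genes. Nfasc, which anchors the axon-glia junction in one of its isoforms, was called lower (log2 difference -2.15), as were the connexin Gjc3 (-2.01), Bcas1 (-1.66), a marker of early myelinating OLs, Anln (-1.17) and the axoglial adhesion gene Cntn2 (-1.13). The tetraspanin Cd9 was higher by 1.83. Of 8 myelin lipid genes 2 were called higher and 5 lower (median -0.73). Aspa, which splits N-acetylaspartate, was lower (-1.70), as were the fatty acid enzymes Elovl7 (-1.50) and Fa2h (-1.15) and the galactolipid enzyme Ugt8a (-0.79), while Degs1 (1.56) and Elovl1 (0.70) were higher. Of 9 transcription factors of the lineage 3 were higher and 5 lower (median -0.59). They spanned St18 (-3.60), Zfp536 (-3.42), Sox10 (-0.94) and Myrf (-0.87) on the lower side and Nkx6-2 (0.77) and Olig1 (1.25) on the higher. Of the listed genes, Anln, Hapln2, Gjb1, Aspa, Ugt8a and St18 were also among the markers that named the OLs. Their values against OLs are therefore not independent of that choice, and they remain in these counts. Against all nuclei 13 sheath genes were higher and 2 lower, 5 lipid genes higher and 0 lower, and 4 factors higher and 3 lower, beside 36.2% of all genes higher and 38.5% lower, and without TMM, where fewer of all calls were higher, the lists were not counted. The largest of these in size were Cd9 (2.30), Degs1 (2.35) and Olig1 (2.25).

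Within the OLs of a library, the genes varied with the depth of a nucleus, and again not together. The OLs of each library were cut into 3 classes of equal size by their UMIs of other genes. Median depths were 3380 to 4745 UMIs in the deepest class, called deep OLs, and 1325 to 2123 in the shallowest. None of the 9 passed the size limit of 0.5, where 12.2% of 11626 genes tested did (2.76% higher and 9.49% lower in deep OLs). With no limit on size, 4 of the 9 were lower in deep OLs and 3 higher at an adjusted p below 0.05, beside 20.9% and 19.7% of all genes. Mitochondrial UMIs moved with depth, at medians of 0.694% to 0.931% in shallow and 0.44% to 0.612% in deep OLs, and their part in these differences was not tested. The make-up of the 9 genes' UMIs lay 19.6 ± 4.08 points from that of extranuclear barcodes in shallow OLs and 23.6 ± 4.97 points in deep OLs. The middle class lay at 21.7 ± 4.39 points. The part of free RNA in the differences by depth was not tested either.

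Opalin stood furthest from 0. It stood at 314, 325, 346 and 381 CPM in shallow OLs of controls 1 to 4 and at 192, 208, 263 and 249.8 CPM in their deep OLs. In replicates 10 to 13 it stood at 364, 414, 326 and 333 CPM and at 249, 307, 222 and 266 CPM. It was lower in deep OLs of all 8 libraries, and every deep value was below every shallow one, with a log2 difference of -0.47 (SE 0.040, adjusted p = 3.3e-19). Mal (-0.22, SE 0.030, adjusted p = 4.5e-10), Cldn11 (-0.20, SE 0.031, adjusted p = 5.2e-08) and Cnp (-0.18, SE 0.034, adjusted p = 6.0e-06) were also lower in deep OLs, each in 8 of 8 libraries. Mbp (0.17, SE 0.027, adjusted p = 7.4e-08) and Mobp (0.14, SE 0.029, adjusted p = 3.3e-05) were higher in 8 of 8, and Ermn (0.13, SE 0.033, adjusted p = 9.3e-04) in 6 of 8. For Mog (0.035, SE 0.030, adjusted p = 0.38) and Mag (-0.0035, SE 0.029, adjusted p = 0.94) no difference was detected. Opalin passed the limit without cKO replicate 11 (-0.50) or 13 (-0.51) and without TMM scaling (-0.52).

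The differences by depth were also taken within the 16 clusters of OLs. When the classes were cut within each cluster, a choice made after seeing the data, Opalin differed by -0.051 (adjusted p = 0.38), Mal by 0.042 (0.33), Cldn11 by 0.00082 (0.99) and Cnp by 0.041 (0.4). Mbp (0.12, adjusted p = 1.7e-04), Mobp (0.12, 2.0e-04) and Ermn (0.14, 4.3e-04) kept their direction and an adjusted p below 0.05. The 9 genes were not used for clustering, but clusters come from the same nuclei, so their levels are a description.

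Opalin varied most between OL clusters. Its mean ran from 62.8 CPM in the cluster numbered 2, led by A530053G22Rik, Gm32122, Art3 and Rab37, to 576 CPM in cluster 6, led by 7630403G23Rik, Kit, Rasal1 and C030029H02Rik. In cluster 2 the 8 libraries stood at 48.3 CPM at the lowest, 57.2 CPM at the median and 86.2 CPM at the highest. In cluster 6 they stood at 395, 561 and 786 CPM. The means differed by a ratio of 9.18 and no library of cluster 2 reached any of cluster 6. Nuclei of cluster 2 had 1.25 times and those of cluster 6 0.823 times the UMIs of the typical nucleus of their library. The coefficient of variation over the 16 cluster means was 49.9% for Opalin, 23.2% for Mal, 16.1% for Cldn11, 14.3% for Cnp and 7.52% for Ermn, and 2.99% (Mog) to 4.21% (Mag) for the other 4.

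**Figure D4:**
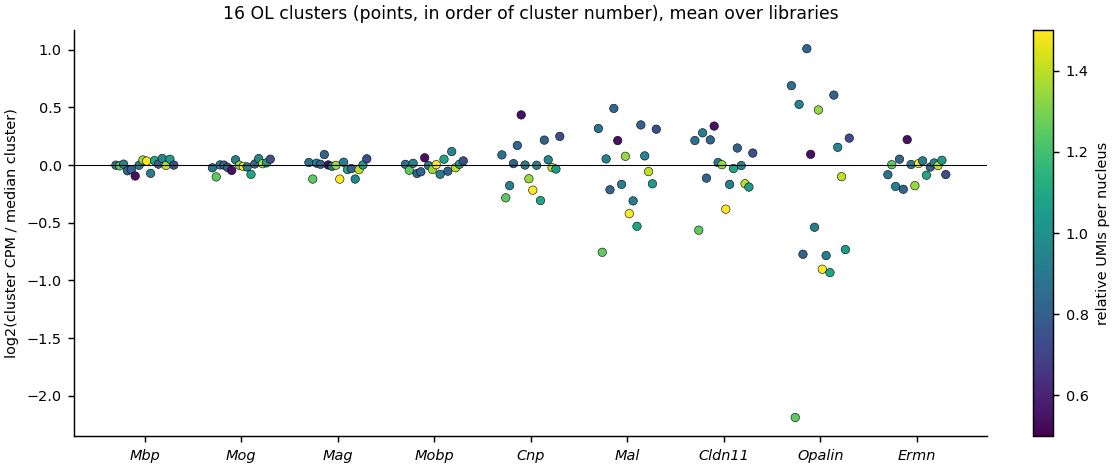
Level of each gene in each of 16 OL clusters relative to the median cluster (log2 of the ratio of CPM), with points in order of cluster number and coloured by the UMIs per nucleus relative to the library. Mbp, Mog, Mag and Mobp lie near 0 in every cluster, while Opalin spreads widely and is lowest in cluster 2.

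Mal, Cldn11, Cnp and Ermn did not share 1 order of clusters. Mal ran from 767 CPM in cluster 2 to 1821 CPM in cluster 6, the same pair as Opalin, with a ratio of 2.37. Cldn11 ran from 651 CPM in cluster 2 to 1217 CPM in cluster 7, with Apln, Stmn4 and Nkx6-2 among its leading genes, whose nuclei were the shallowest at 0.542 times the typical UMIs. Cnp ran from 586 CPM in cluster 17 to 981 CPM in cluster 7. Ermn was lowest in cluster 6 at 764 CPM, where Opalin and Mal were highest, and highest in cluster 7 at 1029 CPM. Each of these orders of the lowest and highest cluster was seen in 8 of 8 libraries, although the clusters were picked from the means of these same libraries. For Mbp, Mog, Mag and Mobp the highest cluster stood 1.11, 1.12, 1.16 and 1.15 times the lowest. The coefficient of variation over clusters was above the mean one over libraries within a cluster for Opalin (49.9% against 22.3%) and below it for the other 8 genes, by least for Cldn11 (16.1% against 16.3%). Of the further sheath genes Septin2 (0.51) was called higher and Cd9 (-0.70) lower in deep OLs, and no lipid gene or factor was called, with Elovl7 (0.47), Cers2 (-0.40), Olig1 (-0.45) and St18 (0.40) furthest from 0.

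In OLs, none of the 9 genes was called between the cKO-labelled libraries and the controls. Of 14469 genes tested 12 were called, or 0.0829% (edgeR's quasi-likelihood test, genotype as the only factor). Log2 differences, taken as cKO-labelled libraries minus controls, ran from -0.12 for Mal to 0.22 for Cnp. They were positive for 6 of the 9 genes, beside 7841 of all 14469 genes. The median of the 9 was 0.11 beside 0.02 for all genes. The libraries of the 2 groups overlapped for each gene.

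**Figure D5:**
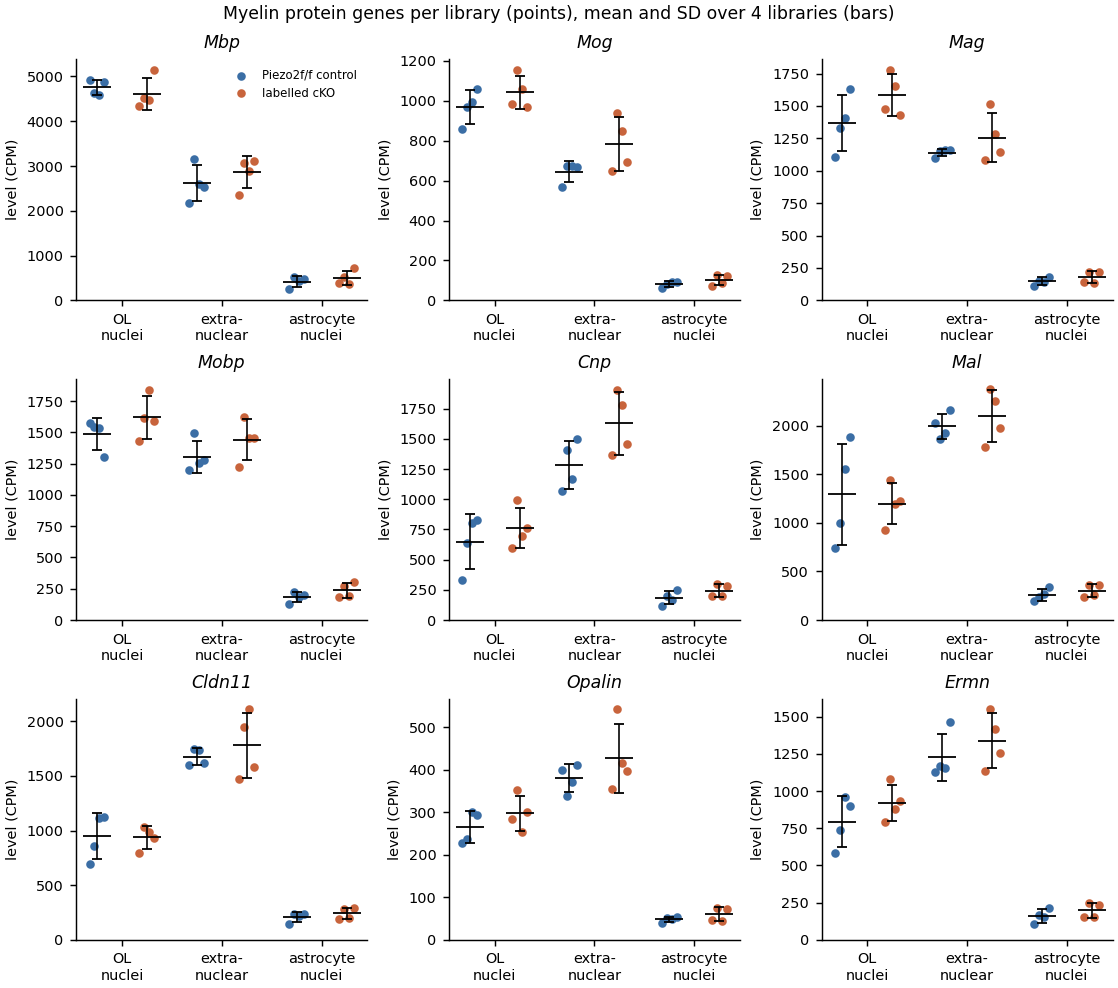
Level (CPM) of each gene in each library, in OL nuclei, extranuclear barcodes and astrocyte nuclei, for Piezo2f/f controls (blue) and cKO-labelled libraries (orange), with the mean and SD over 4 libraries. The groups overlap in all panels, and control replicate 1 has the lowest OL value of all 8 libraries for each gene but Mbp and Mobp.

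Mbp and Cnp, whose OL values are given above, differed by -0.060 (SE 0.099, adjusted p = 0.88) and 0.22 (SE 0.24, adjusted p = 0.81). The Mbp difference was -0.12 without cKO replicate 13 and -0.029 without cKO replicate 10. The lowest Cnp value was control replicate 1, at 329 CPM against at least 600.0 CPM in the other 7 libraries, and without it the difference was 0.001 on the log2 scale. Without control replicate 4 the Cnp difference was 0.35. Mobp stood at 1575, 1539, 1533 and 1301 CPM in controls and 1432, 1614, 1842 and 1588 CPM in the cKO-labelled libraries, a difference of 0.11 (SE 0.11, adjusted p = 0.8). Its lowest value was control replicate 4 and its highest cKO replicate 12, and without the latter the difference was 0.019. Mal differed by -0.12 (SE 0.24, adjusted p = 0.91), with the controls spread over the whole range, from replicate 1 at the bottom to replicate 4 at the top. Cldn11 stood at 695, 855, 1114 and 1127 CPM and 798, 1034, 985 and 928 CPM, with the second group inside the range of the controls and a difference of -0.032 (SE 0.15, adjusted p = 0.97).

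Mag stood at 1108, 1328, 1405 and 1628 CPM in controls and 1480.5, 1778, 1655 and 1428 CPM in the cKO-labelled libraries, a difference of 0.20 (SE 0.12, adjusted p = 0.66). Mog stood at 857, 969.7, 994 and 1057 CPM and 986, 1155, 1059.8 and 968 CPM, a difference of 0.088 (SE 0.098, adjusted p = 0.81). For both, control replicate 1 was lowest and cKO replicate 11 highest. Opalin stood at 227, 237, 301 and 294 CPM and 284, 354, 254 and 300.2 CPM, a difference of 0.15 (SE 0.12, adjusted p = 0.74). Ermn stood at 583, 739.6, 958 and 899 CPM and 788, 1079, 879.9 and 934 CPM, a difference of 0.20 (SE 0.15, adjusted p = 0.72). In these genes too the lowest library was control replicate 1 and the highest cKO replicate 11. Without cKO replicate 11 the difference of Opalin was 0.067. Without control replicate 1 the differences of Ermn, Mag and Mog were 0.076, 0.11 and 0.039, and without control replicate 3 the 9 ran from -0.075 to 0.34. Replicate 3 had the most pituitary RNA, but the pituitary genes were higher in OLs of every control (26.4 to 1014 CPM) than in those of any of the cKO-labelled libraries (1.60 to 15.96 CPM), and their part was not tested.

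Outside nuclei all 9 differences were positive, and none was called. They ran from 0.093 for Mal to 0.36 for Cnp, with a median of 0.16 beside 0.00 for all genes, and with barcodes of 10 to 100 UMIs Cnp (-0.018), Cldn11 (-0.017) and Ermn (-0.025) were negative. Of all 16345 genes, 8210 had positive differences and 5 were called (0.0306%). Cnp, at the values above, differed by 0.36 (SE 0.14, adjusted p = 0.62). Mog stood at 566, 673, 673 and 669 CPM in controls and 647, 939, 849.8 and 694 CPM in the cKO-labelled libraries, a difference of 0.30 (SE 0.13, adjusted p = 0.63). Control replicate 1 was the lowest of all 8 and cKO replicates 11 and 12 the highest, with replicate 10 inside the range of the controls. Mobp, Mag, Opalin, Ermn, Mbp and Cldn11 had differences of 0.16, 0.16, 0.19, 0.15, 0.15 and 0.11, with adjusted p-values of 0.72 to 0.85 among the 7 genes other than Cnp and Mog. The pituitary genes, higher in every control than in any of the cKO-labelled libraries, moved with the groups, and their part was not tested. Single libraries moved these values. Without cKO replicate 11 Opalin stood at 0.038, Mag at 0.045, Ermn at 0.056, Mobp at 0.083, Mal at 0.015 and Mog at 0.19. Cldn11 stood at 0.018 without cKO replicate 12, and Mbp at 0.082 without control replicate 1 and 0.26 without control replicate 2. Without cKO replicate 10 Cldn11 stood at 0.18 and Mal at 0.16. Without control replicate 3, where the pituitary genes were highest, the 9 differences ran from 0.067 to 0.31.

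Astrocytes, measured in the same libraries, gave positive differences for all 9 genes as well, where 7386 of 14324 genes were positive. The 9 differences ran from 0.20 for Mal to 0.40 for Cnp (median 0.32 beside 0.01 for all genes), with adjusted p-values of 0.66 to 0.8. No gene was called by edgeR among 14324 tested (0%), although 1116 had an unadjusted p below 0.05, and DESeq2 called 9. Without control replicate 1 the differences were 0.063 for Cldn11, 0.089 for Mal, 0.14 for Mag, 0.15 for Ermn, 0.19 for Mog, 0.21 for Mobp and 0.23 for Cnp. Without cKO replicate 13 Mbp differed by 0.026, and without cKO replicate 11 Opalin differed by 0.20. In the other direction, without control replicate 4 the differences were 0.35 for Mal, 0.39 for Mag, 0.50 for Ermn and 0.57 for Cnp. Mbp in astrocytes stood at 246, 518, 424 and 478 CPM in controls and 392, 529, 359 and 718 CPM in the cKO-labelled libraries. The lowest was control replicate 1 and the highest cKO replicate 13, and the groups overlapped. The summed level of the 9 genes in astrocytes was 1139 to 2051 CPM in controls and 1618 to 2605 CPM in the cKO-labelled libraries. The 11 OL markers, all with UMIs in astrocytes, summed there to 987 to 1463 CPM and 1123 to 1652 CPM, and their part in these differences was not tested.

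In OPCs, where 20 of 6223 genes were called (0.321%), none of the 9 was. Mog had the largest difference at 0.47 (SE 0.25, adjusted p = 0.71), with 45.2, 81.6, 76.9 and 97.6 CPM in controls and 67.4, 142, 101 and 97.9 CPM in the cKO-labelled libraries, which overlapped. Without control replicate 1 it was 0.25. The others ran from -0.12 for Opalin to 0.28 for Ermn, and leaving out 1 library moved Cnp between 0.041 (without cKO replicate 11) and 0.51 (without control replicate 4) and Ermn between 0.14 (without control replicate 3) and 0.50 (without control replicate 4). The effects within libraries were also compared between the groups with an interaction term. The difference between extranuclear barcodes and OLs did not pass the test for any of the 9 genes (largest for Mbp at 0.21, SE 0.18, adjusted p = 0.97, with 1 of 15581 genes past an adjusted p of 0.05). The depth effect did not either (largest for Opalin at 0.13, SE 0.08, adjusted p = 0.90, with 3 of 11626 genes past it).

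Of the further sheath genes, lipid genes and factors that were tested, 0 were called between the groups in OLs, extranuclear barcodes, astrocytes or OPCs, by the test whose counts over all genes are given above. In OLs, genes far from 0 in their lists were Hapln2 (0.53), Cers2 (0.29), Elovl1 (0.20), Olig1 (0.61) and Olig2 (0.60), with adjusted p-values of 0.23 to 0.57. The lists did not lean as these genes do, with 8 of 20 sheath genes, 4 of 8 lipid genes and 6 of 9 factors positive. Their medians were -0.044, 0.029 and 0.045, beside 0.02 for all genes. The lowest gene of each list stood at -0.24, -0.17 and -0.31. Outside nuclei the genes far from 0 were Hapln2 (0.43), Gal3st1 (0.37), Elovl1 (0.35), Olig1 (0.64) and Nkx6-2 (0.55), with adjusted p-values of 0.23 to 0.62. There 15 of 20 sheath genes, 6 of 8 lipid genes and 6 of 9 factors were positive, beside 8210 of all 16345 genes. The medians of the lists were 0.11, 0.12 and 0.26, beside 0.00 for all genes. In astrocytes 19 of 20 sheath genes, 8 of 8 lipid genes and 5 of 8 factors were positive (medians 0.19, 0.15 and 0.28), beside 7386 of all 14324 genes. In OPCs the counts were 5 of 16, 1 of 7 and 4 of 7, beside 3150 of all 6223 genes.

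Over the 11 classes of barcodes, the genes whose mean levels followed those of the 9 most closely were, by Pearson's r among 7248 genes with at least 20 CPM in OLs, Car2 (0.993), Tubb4a (0.986), Josd2 (0.985), Cpox (0.983) and Tprn (0.980), with 1 further gene not reported here. Car2 encodes a carbonic anhydrase found in OLs and Tubb4a a tubulin of OLs and neurons. The classes share libraries, so these values are a description. Among the 9 genes themselves, r with their common pattern, which includes the gene itself, ran from 0.953 for Mbp to 0.993 for Mobp.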

How the data were processed

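Nuclei of P120 mouse ONs were measured in 8 snRNA-seq libraries (10x Genomics 3′ chemistry), 4 per genotype. The deposited values are raw UMI counts per gene and barcode that the authors made with Cell Ranger 7.0.0 on GRCm39, per the submitters' processing notes. Whether intronic reads were counted is not given in the sources used here. Libraries held 39628926 to 56541132 UMIs, and this depth limits the precision of small classes. The deposited counts are not normalized, and the authors' later removal of ambient RNA and normalization are not part of them.

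Nuclei were called from barcode totals and by comparison with the 45000 extranuclear barcodes of the library. That comparison used all genes, the myelin genes included, so nuclei called by it were chosen to differ from those barcodes. Nuclei were filtered on genes (at least 200), mitochondrial share (at most 5%) and outlying totals. A doublet score removed 1586 barcodes. Nuclei were clustered (scanpy 1.11.5, Leiden resolution 3) and named from marker lists, both without the myelin genes described here. Of 37176 nuclei 9.12% stayed unnamed. Counts were summed per library and class and tested with edgeR 4.0.16 (quasi-likelihood test, TMM scaling, low-count filter, Benjamini-Hochberg adjustment), with genotype as the factor or with the library as a block for comparisons within libraries. The call rule asked for an adjusted p below 0.05 and a log2 difference above 0.5 in size. Levels (CPM) are UMIs per 1000000 UMIs of a sum, as the mean and SD over libraries. The libraries pool different animals, so the spread between them is that of pools.

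Alternatives were DESeq2 1.42.0, other size factors, no low-count filter, each library left out, other depth and barcode limits and, chosen after seeing the data, no TMM scaling and depth classes cut within clusters. The myelin genes and the lists were chosen with earlier results of these data known. All members were named, with up to 6 genes of each list that passed the test by size of difference (otherwise the 2 furthest from 0) and the 6 genes of most similar pattern. The rule names 10 genes, of which 1 is not reported here, and some genes that the rule for the lists would name are not reported either.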

Additional observations from a re-analysis of the deposited data

Results flagged for a closer look

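In 108 groups of 4 libraries (9 genes, several classes of barcodes, both genotypes), 6 groups held a library that stood apart from the other 3 by Dixon's criterion at the 95% level, which chance alone meets in about 1 in 20 groups. Mobp in OLs was lowest in control replicate 4, at 1301 CPM, with the nearest library at 1533 CPM. Outside nuclei, control replicate 1 was lowest for Mog (566 CPM, nearest 669 CPM) and for Mag (1095 CPM, nearest 1152 CPM), and control replicate 4 was highest for Ermn (1463 CPM, nearest 1167 CPM). Cldn11 in astrocytes was lowest in control replicate 1, at 141 CPM (nearest 220.0 CPM). Mbp in deep OLs was highest in cKO replicate 13, at 5228 CPM (nearest 4587 CPM).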

How the results depend on the processing

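No paired analysis was possible because the groups share no replicate number (1 to 4 and 10 to 13), so genotype comparisons carry no block. For comparisons within libraries, the replicate block (the library) was left out in turn: 1206 genes were then called by depth in place of 1424, 13210 between extranuclear barcodes and all nuclei in place of 13304, and 12337 between extranuclear barcodes and OLs in place of 12360, and Ermn lost its call in the last (0.50).

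Counts of genes called between genotypes depended on the tool and the filter. In OLs DESeq2 called 54 and edgeR without the low-count filter 41, in place of 12, and leaving out 1 library gave 9 to 16. In extranuclear barcodes both gave 28 in place of 5, and leaving out 1 library gave 0 to 6, with 0 without control replicate 1 or cKO replicate 10, 11 or 12. In astrocytes DESeq2 called 9, no filter 27 and thinning to 1000 UMIs 1, in place of 0, and leaving out 1 library gave 0 to 4, with 4 without cKO replicate 13. In OPCs no filter gave 34 and thinning 4, in place of 20, and leaving out 1 library gave 11 to 20, with 11 without control replicate 1 and 12 without cKO replicate 10 or 12. By depth, the deeper against the shallower 50% of OLs gave 852 genes, classes cut within clusters 398 and leaving out 1 library 1361 to 1523. With barcodes of 10 to 100 UMIs 5221 genes were called against all nuclei and 5411 against OLs, and leaving out 1 library gave 13226 to 13444 and 12305 to 12659. The cause of these changes was not tested.

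Of the 9 genes, those barcodes turned the sign of Mbp (-0.28) and Mog (-0.17) against all nuclei, of Mal (-0.10), Opalin (-0.11) and Ermn (-0.10) against OLs, and of Cnp (-0.018), Cldn11 (-0.017) and Ermn (-0.025) between genotypes. By depth, Mag turned to 0.0054 with DESeq2, 0.035 without the filter and 0.046 within clusters, Mog to -0.014 without TMM, and Cnp (0.041), Mal (0.042) and Cldn11 (0.00082) turned within clusters. Leaving out 1 library turned genotype differences that were near 0. In OLs Cldn11 ran from -0.15 to 0.059 and Mal from -0.31 to 0.11. In OPCs Mbp ran from -0.090 to 0.26, Mobp from -0.093 to 0.19, Cldn11 from -0.31 to 0.10, Mal from -0.35 to 0.12, Opalin from -0.35 to 0.027 and Mag from -0.036 to 0.30. By depth Mag ran from -0.019 to 0.0041. No OL cluster drew over 50% of its nuclei from 1 library (highest 32.4%), so leaving such clusters out gave no value. Of the values for single genes, 947 kept direction and side of the threshold, 38 turned, 10 lost and 11 gained a call, and 18 shares of nuclei moved when thinned to 500 UMIs. Depth limits the small classes, with 43 to 98 UMIs of the 9 genes per library in mural cells, 70 to 167 in T cells and, among the classes compared between genotypes, 472 to 1042 in OPCs.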
